A study of Mus musculus with 6 samples.

Results

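Desmosomes are the cell junctions to which the keratin filaments of epithelial cells are anchored. Their adhesive part is made of desmosomal cadherins, the desmogleins and desmocollins, whose extracellular parts bind those of the neighbouring cell. On the inner side of the membrane, the armadillo proteins plakoglobin and the plakophilins bind the cadherin tails, and the plakin desmoplakin links this plaque to keratin. In ductal epithelium the keratins held there are those of simple epithelium, KRT7 among them.

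The 10 desmosome genes described here were taken from a gene count table of 30543 genes by their Ensembl identifiers. They are the cadherin genes DSG2 (ENSG00000046604), DSC2 (ENSG00000134755) and DSC3 (ENSG00000134762), the plakoglobin gene JUP (ENSG00000173801), and the plakophilin genes PKP1 (ENSG00000081277), PKP2 (ENSG00000057294) and PKP3 (ENSG00000184363). The plakin genes are DSP for desmoplakin (ENSG00000096696), PPL for periplakin (ENSG00000118898) and EVPL for envoplakin (ENSG00000167880). All 10 members passed the filter on low counts.

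The libraries were made from CFPAC-1, an established human cell line of pancreatic adenocarcinoma (PAAD). Cells received a control siRNA (si-Control, 3 libraries) or a siRNA against KRT7 (si-KRT7, 3 libraries), and polyadenylated RNA was sequenced. The comparison asks which transcripts differ after the knockdown, here those of the junction that holds keratin. The sample labels give the organism as mouse, although the line and every identifier in the table are human. The labels name no separate cultures, so the p-values measure the spread between these libraries, which may be technical. All values come from 1 cell line, and the time after transfection and the siRNA duplex used for sequencing are not given in the sources used here. The paper lists more than 1 duplex against KRT7, and whether all si-KRT7 libraries received the same duplex is not stated. The table lists identifiers without gene names. The row of KRT7 was therefore not looked up, and the strength of the knockdown was not analysed here, nor were markers of other cell types.

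The libraries held between 28208896 and 36315802 counts, and si-KRT7 replicate 2 was the smallest. The members together took between 0.285% (si-KRT7 replicate 2) and 0.371% (si-KRT7 replicate 1) of the counts of a library. The lowest member count was 286, for DSC2, where counting error alone gives a coefficient of variation of 5.91%. For the other members this was at most 2.63%. Replicate 2 of si-KRT7 stood apart from its group. The mean chi-square per gene between its counts and those of si-KRT7 replicates 1 and 3 was 79.6 and 61.6, against 5.70 between replicates 1 and 3 and at most 5.48 among the si-Control libraries. Its values are therefore given one by one, and the edgeR test of each member is given with and without it. In the fit without it, 42.9% of the 16202 genes tested had an adjusted p under 0.05. Leaving out a library because it stands apart narrows the spread that the p-values measure. A small adjusted p from that fit is therefore not read as added evidence for a member. Levels are CPM, the count of a gene scaled to a common library total, after TMM scaling, which adjusts for differences in library composition. CPM is not divided by gene length, so levels of different genes are not ranked. In bulk RNA, fewer cells with a transcript and less of it per cell cannot be told apart.

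With all 6 libraries, 1 of the 10 members, PKP1, passed an adjusted p under 0.05 in edgeR's quasi-likelihood test, where 2.07% of the 15736 genes tested did. PKP1 was lower in si-KRT7 cells, a direction in which 1.35% of all genes passed. No member also passed an absolute log2 fold change of 1, a pair of limits that 0.292% of all genes passed. At an unadjusted p under 0.05 in edgeR there were 3 members (PKP1, PKP2 and PPL), where 18.6% of all genes passed. DESeq2 called 2 members (PKP1 and PKP2, with 7.30% of all genes) and none past both limits. The median log2 fold change of the members was -0.02, against 0.01 over all genes tested, and the median of its size was 0.18 in both.

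**Figure D1:**
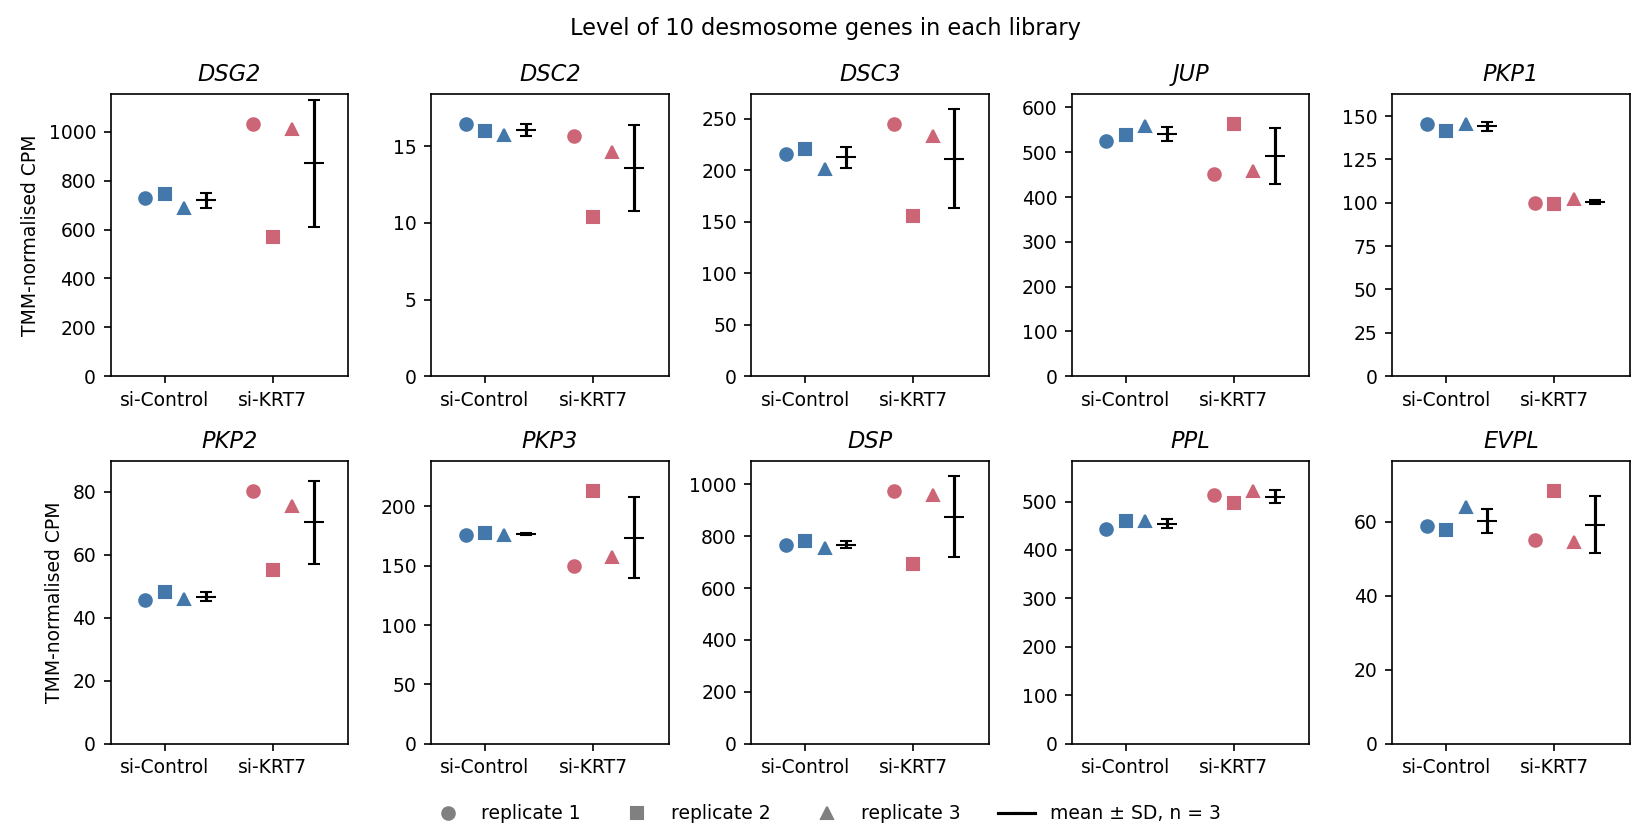
Level of each desmosome gene in TMM-normalised CPM (vertical axis, from 0) in the si-Control (blue) and si-KRT7 (red) libraries. Symbols mark the replicate, and bars the mean ± SD of 3 libraries. PKP1 stood near 100 CPM in all 3 si-KRT7 libraries and above 141 CPM in all si-Control libraries, whereas in most other panels si-KRT7 replicate 2 (square) lay away from replicates 1 and 3.

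Plakophilins bind the desmosomal cadherins and desmoplakin and help to cluster them into the plaque. Among them, PKP1 was the member with the steadiest difference. PKP1 is best known from stratified epithelium, where its loss causes skin fragility. Its level was 146, 141 and 145 CPM in si-Control replicates 1, 2 and 3. In si-KRT7 replicates 1, 2 and 3 it was 99.9, 99.6 and 102 CPM. The groups did not overlap, and all 3 si-KRT7 libraries, replicate 2 included, read alike. The mean fell from 144 ± 2.49 to 100.5 ± 1.30 CPM (SD, n = 3 each), which is -0.52 ± 0.07 (standard error) as a log2 fold change with an adjusted p of 0.0117 in edgeR, or a fold of 0.698 with a 95% interval from 0.625 to 0.778. The size of this change did not rest on any 1 library, with a log2 fold change between -0.54 and -0.51 when each was left out in turn. Its call did. Without si-KRT7 replicate 2 the adjusted p was 2.87e-10 in edgeR, in a fit where 42.9% of all genes passed. With any other library left out instead, it lay between 0.0576 and 0.129, over the limit. In those fits only 0.0372% to 0.542% of all genes passed, against 2.07% with all libraries.

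PKP2, the plakophilin of simple epithelium and heart muscle, differed in the other direction. It was measured at 45.7, 48.3 and 46.1 CPM in the si-Control libraries. The si-KRT7 libraries held 80.2, 55.3 and 75.5 CPM, all above si-Control, with replicate 2 nearest to it. The mean was 46.7 ± 1.40 CPM in si-Control and 70.3 ± 13.2 CPM in si-KRT7 cells (SD, n = 3 each). The log2 fold change of 0.59 (standard error 0.14) missed the limit in edgeR (adjusted p = 0.0694), with a 95% interval of the fold from 1.21 to 1.87. It passed in the DESeq2 Wald test (log2 fold change 0.59, adjusted p = 0.00332). It also passed in edgeR without si-KRT7 replicate 2, as did 42.9% of all genes, and the log2 fold change there was 0.73 (adjusted p = 1.42e-10).

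PKP3, which is found in most desmosome-bearing epithelia, had nearly equal group means. Its si-Control levels were 176, 177 and 176 CPM, the narrowest range of the members on the log2 scale. The si-KRT7 libraries read 150, 213 and 158 CPM, so replicates 1 and 3 lay below and replicate 2 above every si-Control library. The fold was 0.984 with a 95% interval from 0.802 to 1.21 (adjusted p = 0.945 in edgeR). PKP3 was lower in the fit without si-KRT7 replicate 2, where its log2 fold change was -0.20 (edgeR, adjusted p = 9.24e-05).

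DSG2 encodes the most widely expressed desmoglein, the one found in simple epithelium. It was measured at 730, 744 and 687 CPM in si-Control replicates 1, 2 and 3, and at 1033, 570 and 1010 CPM in those of si-KRT7. Relative to the si-Control mean, si-KRT7 replicates 1 and 3 reached 143% and 140% and replicate 2 reached 79.1%, on the other side of all si-Control libraries. With a mean of 720 ± 30.0 CPM in si-Control and 871 ± 261 CPM in si-KRT7 cells (SD, n = 3 each), the fold of 1.21 had a 95% interval from 0.883 to 1.66 and an adjusted p of 0.506 in edgeR. In the fit without si-KRT7 replicate 2, DSG2 was higher, by 0.50 ± 0.03 (standard error) on the log2 scale (edgeR, adjusted p = 2.89e-11).

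The desmocollins DSC2 and DSC3 are the cadherins that pair with desmogleins. DSC3 is known chiefly from the basal layers of stratified epithelium and DSC2 from epithelia in general. DSC3 was measured at 216, 220 and 201 CPM in si-Control libraries. In si-KRT7 replicates 1, 2 and 3 it was 245, 156 and 233 CPM, so the same libraries lay above and below si-Control as for DSG2. The fold was 0.994 with a 95% interval from 0.776 to 1.27 (adjusted p = 0.984 in edgeR), and without si-KRT7 replicate 2 the log2 fold change was 0.17 (adjusted p = 0.00117).

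DSC2, at 16.5, 16.0 and 15.7 CPM in si-Control libraries, read 15.7, 10.4 and 14.6 CPM in those of si-KRT7. All 3 si-KRT7 values were lower than si-Control, but replicate 1 only by a margin that other scalings closed. The fold of 0.847 had a 95% interval from 0.665 to 1.08 (adjusted p = 0.447 in edgeR). It still missed the limit without si-KRT7 replicate 2, at -0.08 on the log2 scale (edgeR, adjusted p = 0.488), and it did not pass under any of the 18 alternatives.

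Plakoglobin, which desmosomes share with adherens junctions and which can act beside beta-catenin, is encoded by JUP. The gene was measured at 526, 538 and 558 CPM in si-Control libraries. Replicates 1, 2 and 3 of si-KRT7 held 452, 563 and 458 CPM, replicates 1 and 3 below si-Control and replicate 2 just above it. The fold was 0.908 with a 95% interval from 0.780 to 1.06 (adjusted p = 0.489 in edgeR). JUP was lower once si-KRT7 replicate 2 was left out, at -0.25 on the log2 scale (edgeR, adjusted p = 1.11e-06).

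The plakin DSP, which ties the plaque to keratin filaments, was measured at 765, 782 and 756 CPM in si-Control libraries and at 973, 695 and 960 CPM in si-KRT7 replicates 1, 2 and 3. Replicates 1 and 3 thus had 127% and 125% of the mean si-Control level and replicate 2 had 90.5%, below every si-Control library. The fold of 1.14 had a 95% interval from 0.937 to 1.39 (adjusted p = 0.456 in edgeR). DSP was higher when si-KRT7 replicate 2 was left out, by 0.33 ± 0.03 (standard error) on the log2 scale (edgeR, adjusted p = 3.68e-09).

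Periplakin and envoplakin are plakins that also bind keratin and form part of the cornified envelope of skin. PPL was measured at 443, 459 and 460 CPM in si-Control libraries. It read 513, 496 and 521 CPM in those of si-KRT7, between 109% and 115% of the si-Control mean in all 3. The groups did not overlap, and replicate 2 was close to the others, as for PKP1. The log2 fold change of 0.17 (standard error 0.06) had an adjusted p of 0.216 in edgeR, and one of 3.82e-05 without si-KRT7 replicate 2, where the log2 fold change was 0.18.

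EVPL, at 58.8, 57.9 and 64.0 CPM in si-Control libraries, read 55.1, 68.3 and 54.4 CPM in those of si-KRT7. Replicate 2 lay above and the other two below the si-Control libraries. The fold was 0.984 with a 95% interval from 0.827 to 1.17 (adjusted p = 0.935 in edgeR), and without si-KRT7 replicate 2 the log2 fold change was -0.14 (adjusted p = 0.0506), just over the limit.

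**Figure D2:**
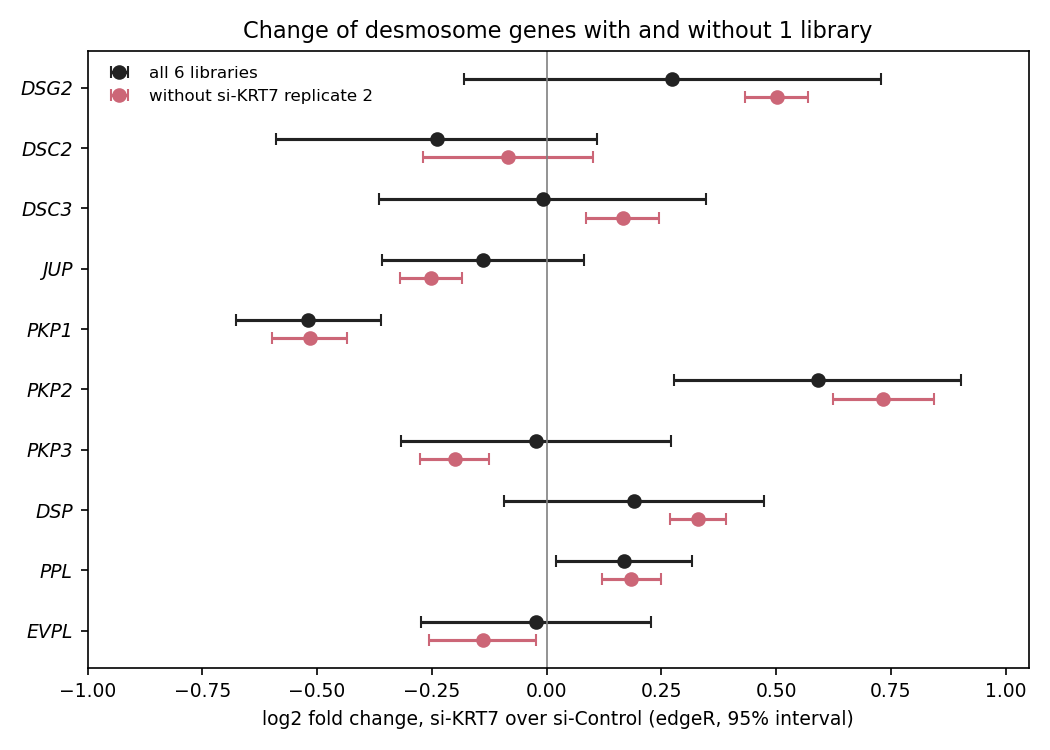
Log2 fold change of each desmosome gene in si-KRT7 over si-Control cells (horizontal axis) with its 95% interval from edgeR, for all 6 libraries (black) and without si-KRT7 replicate 2 (red). With all libraries the intervals of PKP1, PKP2 and PPL leave out 0 before adjustment over all genes, and without replicate 2 those of all members but DSC2 do, where 48.9% of all genes had an unadjusted p under 0.05.

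Without si-KRT7 replicate 2, 8 of the 10 members had an adjusted p under 0.05 in edgeR, but so did 42.9% of the 16202 genes tested in that fit. At an unadjusted p under 0.05 there were 9, all but DSC2, with 48.9% of all genes. DSP, DSG2, DSC3, PKP2 and PPL were the 5 members that were higher, a direction in which 20.9% of all genes passed. JUP, PKP1 and PKP3 were the 3 that were lower, with 22.0% of all genes. The median size of the log2 fold change was 0.23 over the members and 0.25 over all genes tested in that fit. With limma-voom and sample quality weights, which lower the weight of a library that varies more, 7 members passed (the same 8 without DSC3), as did 43.6% of all genes.

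The groups did not overlap in 4 of the 10 members (PKP1, PKP2, DSC2 and PPL), where 24.4% of all genes tested showed no overlap. Without si-KRT7 replicate 2 they did not overlap in all 10, where 60.6% of all genes did not. For each single gene with 3 libraries against 3, the two-sided exact permutation test cannot give a p under 0.1, which it gave for these 4 members.

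Taken library by library, every member lay outside the range of the 3 si-Control libraries in each si-KRT7 library, 5 above and 5 below in each. Over all genes tested, the share outside that range was 76.8%, 73.6% and 75.9% in si-KRT7 replicates 1, 2 and 3, and 52.0% were outside in all 3. The members also varied less over the si-Control libraries, with a median SD of log2 CPM of 0.0378 against 0.0882 over all genes tested. Of these 30 member values, 29 lay outside with DESeq2's size factors and 28 with library size alone, the exceptions being DSC2 in both and JUP in the latter.

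**Figure D3:**
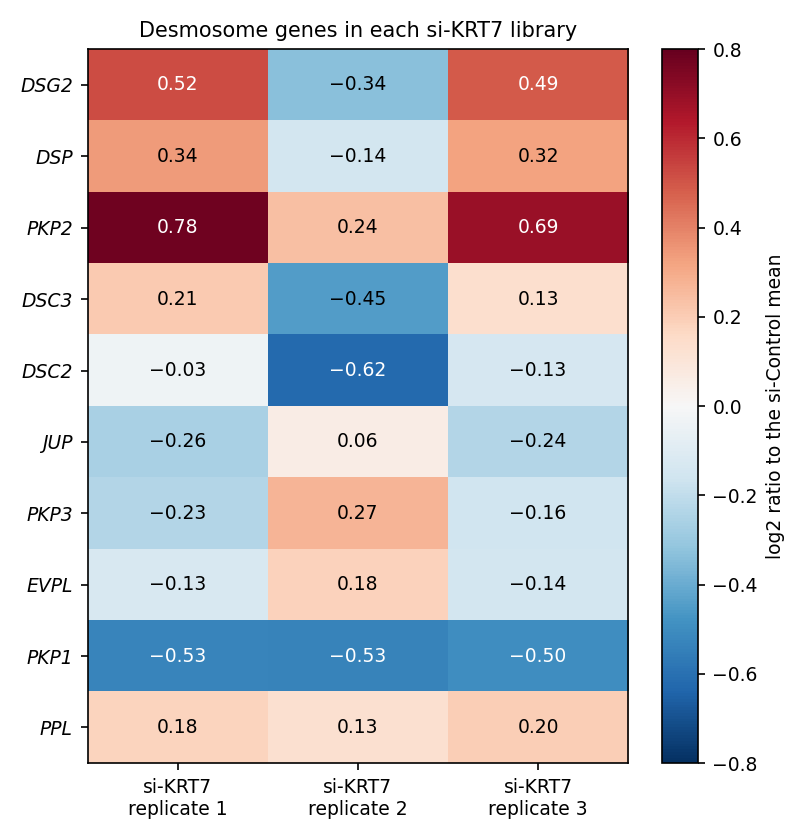
Log2 ratio of each si-KRT7 library (columns) to the mean of the 3 si-Control libraries for each desmosome gene (rows), in colour and as numbers. In replicate 2, DSG2, DSP and DSC3 change from above to below si-Control and JUP, PKP3 and EVPL from below to above, whereas PKP1 (-0.53, -0.53 and -0.50) and PPL (0.18, 0.13 and 0.20) read alike in all 3.

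Against the si-Control mean, the log2 ratio of DSG2 was 0.52, -0.34 and 0.49 in si-KRT7 replicates 1, 2 and 3, that of DSP 0.34, -0.14 and 0.32 and that of DSC3 0.21, -0.45 and 0.13. DSG2, DSP and DSC3 thus changed side in replicate 2. JUP (-0.26, 0.06 and -0.24), PKP3 (-0.23, 0.27 and -0.16) and EVPL (-0.13, 0.18 and -0.14) changed side the opposite way. Over all genes tested, 52.0% lay outside the si-Control range in each of the 3 si-KRT7 libraries. Only 24.4% did so on the same side in all of them, so other genes changed side as well. Whether the members did so more often than other genes was not tested. The library in which other genes changed side was not counted. PKP2 and DSC2 kept their side, but among the si-KRT7 libraries both were lowest in replicate 2. For PKP2 this was the library nearest to si-Control, and for DSC2 the farthest from it. The SD of log2 CPM over the si-KRT7 libraries ran from 0.02 for PKP1 and 0.04 for PPL to 0.49 for DSG2, with a median of 0.27 over the members and 0.23 over all genes tested. Over the si-Control libraries it lay between 0.0069 (PKP3) and 0.0776 (EVPL), with a median of 0.0378 over the members. The median over all genes tested was 0.0882 there, above the SD of every member.

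The deviations of the members from their group means, over 6 libraries that share their depth and scaling, put 8 of the 10 in 2 sets of opposite sign. Pearson's r was between 0.979 and 0.998 among DSP, DSG2, DSC2, DSC3 and PKP2, between 0.901 and 0.969 among JUP, PKP3 and EVPL, and between -0.995 and -0.921 across the sets, which were formed after these values were seen. PKP1 had r between -0.32 and 0.31 with the other members, and PPL between 0.61 and 0.73 with the first set and between -0.67 and -0.56 with the second. Correlations between other pairs of genes were not computed, so the sets are not read as a trait of these genes. The high values rested on si-KRT7 replicate 2. Over the 5 libraries without it r ran from 0.405 to 0.973, from -0.20 to 0.803 and from -0.927 to -0.156.

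Counts of the members within a role group were also set against each other, since such ratios do not depend on the scaling between libraries. The counts are not divided by gene length, so only the change of a share between libraries is read. The widest 95% Wilson interval of a share spanned 1.93 percentage points, for counting error only. PKP1 took 39.7%, 38.5% and 39.6% of the plakophilin counts in the si-Control libraries and 30.3%, 27.1% and 30.4% in those of si-KRT7. The share of PKP2 was 12.5%, 13.2% and 12.5% in the si-Control libraries and 24.3%, 15.0% and 22.5% in those of si-KRT7. Neither share overlapped between the groups. PKP1 had 3.09 ± 0.14 counts for each PKP2 count in si-Control and 1.47 ± 0.30 in si-KRT7 cells (SD, n = 3 each), with 1.80 in si-KRT7 replicate 2. PKP3 took 47.9% to 48.3% of the plakophilin counts in si-Control cells and 45.4%, 57.9% and 47.0% in si-KRT7 replicates 1, 2 and 3.

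The summed level of the 3 plakophilins was 367 CPM in each si-Control library, and 330, 368 and 335 CPM in si-KRT7 replicates 1, 2 and 3. In replicate 2 the sum thus equalled that of si-Control although PKP1 was as low there as in the other si-KRT7 libraries. The plakin sum was 1282 ± 16.7 CPM in si-Control and 1445 ± 161 CPM in si-KRT7 cells (SD, n = 3 each), with replicate 2 at 1259 CPM, below all si-Control libraries.

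Among the cadherins, DSG2 took between 75.9% and 76.0% of the counts in si-Control libraries, and 79.9%, 77.4% and 80.3% in si-KRT7 replicates 1, 2 and 3. DSC3 held 22.3% to 22.5% in si-Control libraries, and 18.9%, 21.2% and 18.5% in those of si-KRT7. DSC2 held 1.63% to 1.74%, and 1.21%, 1.41% and 1.16%, and here the 95% Wilson interval of si-KRT7 replicate 2 (1.26% to 1.58%) overlapped that of si-Control replicate 2 (1.5% to 1.77%), so that this separation was not clear of counting error. For DSG2 and DSC3 all si-KRT7 libraries lay on the same side of si-Control, replicate 2 included, although its summed cadherin level, 736 CPM, was below the 904 to 981 CPM of si-Control and those of replicates 1 and 3, 1294 and 1258 CPM, were above. The ratio of DSG2 to DSC3 counts was 3.39 ± 0.02 in si-Control and 4.07 ± 0.36 in si-KRT7 cells (SD, n = 3 each). By the exact permutation test (two-sided), p was 0.1 for it and for the ratio of PKP1 to PKP2, the smallest p that this design allows. Of the 10 ratios computed, which were chosen after the levels were seen, 5 did not overlap between the groups. These were PKP1 to PKP2, PKP1 to PKP3 and the ratios among the cadherins, which depend on each other. Those with PKP1 share a gene whose own level did not overlap, and those with DSC2 carry its counting error. The share over other pairs of genes was not computed, so the count is not read as a trait of these genes. The ratios of plakins to each other, of PKP2 to PKP3 and of DSP to JUP overlapped, with DSP to PPL at 1.69 ± 0.04 in si-Control and 1.71 ± 0.27 in si-KRT7 cells (SD, n = 3 each).

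**Figure D4:**
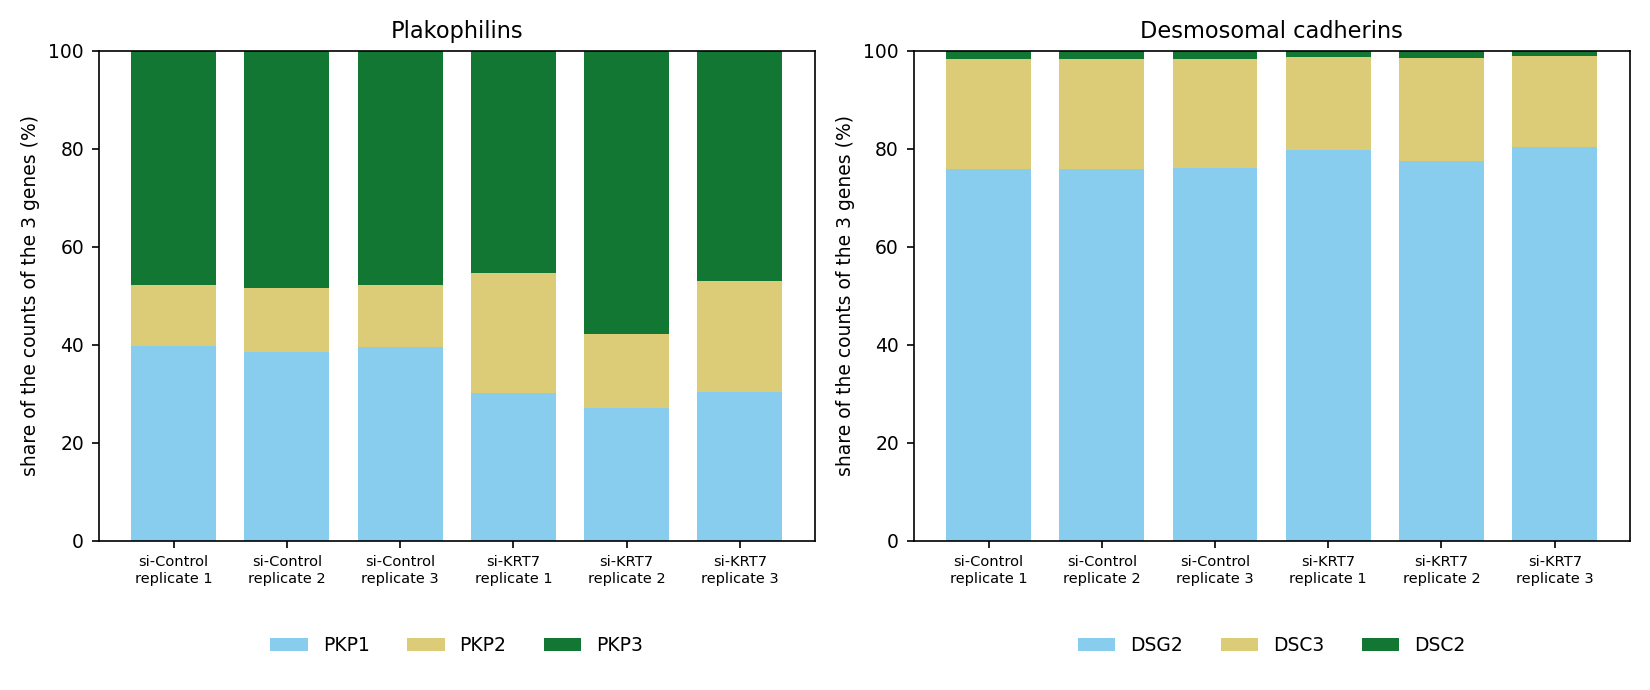
Share of each gene in the counts of the 3 plakophilin genes (left) and the 3 desmosomal cadherin genes (right), in percent from 0 to 100, in each library. In all si-KRT7 libraries the PKP1 share is smaller and the PKP2 and DSG2 shares larger than in any si-Control library, and in replicate 2 the PKP3 share, 57.9%, is the largest.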

How the data were processed

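The authors deposited a table of raw read counts with 1 row per gene and 1 column per library, not normalized. The submitters' processing notes name STAR 2.7.11b and the mouse build GRCm39, although all 30543 identifiers are human Ensembl identifiers; the counting tool, annotation and strand setting are not given in the sources used here, so reads of antisense transcripts overlapping a gene cannot be told apart from its own. Columns headed NC, the paper's name for its negative control siRNA, were matched to si-Control. Columns headed Si were matched to si-KRT7, both by replicate number. This match was inferred and not checked with the row of KRT7. Of the identifiers, 0 matched the name tables at hand, which are for the mouse. The members were named by the symbols paired with their identifiers in the rule that chose them, no coordinates or sequences are given, and KRT7 and the lists of other desmosome, keratin, adherens junction and cell type marker genes were not analysed here.

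The members, lists and tests were chosen with earlier results of these data known. Genes were filtered with filterByExpr (15736 kept), scaled with TMM and tested across all genes with edgeR 4.0.16 in R 4.3.3 (glmQLFit and glmQLFTest, Benjamini-Hochberg adjustment, limit 0.05). Standard errors are the size of the log2 fold change over the square root of F. Log2 CPM used a prior count of 2. Alternatives used DESeq2 1.42.0 and limma 3.58.1, other scalings and filters, a robust fit, each library left out and the replicate number as a block. The tests were checked on simulated counts with a common spread for all genes and no library standing apart. A library like si-KRT7 replicate 2 was therefore not covered by that check. No library was a repeat of another: the mean chi-square per gene of a pair was at least 3.70, where sampling noise gives a value near 1.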

Additional observations from a re-analysis of the deposited data

How the results depend on the processing

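The 1 member with an adjusted p under 0.05, PKP1, and the 325 such genes of the whole table stayed within 1.5 times of these numbers under limma-voom, DESeq2's size factors, library size only, the robust fit, the filter of 10 counts in every library and, added after seeing the data, with the members left out of the scaling. The DESeq2 Wald test gave 2 members and 1148 genes, limma-voom with sample quality weights 7 and 6858, and no filter on counts 2 and 1347. Leaving out each library in turn gave between 0 and 8 members and between 6 and 6944 genes, the highest without si-KRT7 replicate 2. Without that library, and added after seeing the data, the DESeq2 Wald test gave 8 members and 6328 genes and limma-voom 8 and 6934. No member passed both limits under any alternative. The number of members whose groups did not overlap was 4 with all libraries (24.4% of all genes) and 3 with DESeq2's size factors (24.4%) and with library size only (23.9%). It was 10 without si-KRT7 replicate 2 (60.6% of all genes) and 4 without any other library (29.3% to 30.4%).

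With the replicate block 0 members and 76 genes passed, and PKP1 kept its log2 fold change, -0.52, with an adjusted p of 0.0772 in edgeR. After the group mean was taken out of each gene, the pairs of libraries with number 1, 2 and 3 correlated at 0.0520, -0.0798 and -0.0728 (Pearson, genes as points). Deviations within a group of 3 libraries depend on each other, and si-KRT7 replicate 2 stood apart, so these values cannot exclude a pairing. The labels name none, and the numbers were not read as one. No si-KRT7 library correlated best with the si-Control library of its own number.

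Directions turned only in DSC3, PKP3 and EVPL, members with a log2 fold change near 0 with all libraries. In each of them, si-KRT7 replicate 2 lay on the other side of si-Control from the other si-KRT7 libraries. DSC3 was at 0.14 with sample quality weights, 0.0185 with library size only, 0.17 in both the DESeq2 Wald test and limma-voom run without si-KRT7 replicate 2, and between -0.13 and 0.17 with each library left out. That range was -0.20 to 0.0685 for PKP3 and -0.14 to 0.0325 for EVPL. The cause was not tested. The 95% interval of DSG2, the widest, ran from -0.18 to 0.73 on the log2 scale. A member that missed the limit with all 6 libraries is therefore not read as unchanged.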
